A study of Mus musculus with 17 samples.

Results

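Upper-layer cortical excitatory neurons were 366 of 284074 nuclei counted in the posterior brain of 17 mice. The members were chosen by measured values. They were taken from nuclei that the authors labelled neurons, did not call doublets and did not place in cluster 13. A member had 3 or more unique molecular identifiers (UMIs, counted RNA molecules) of Slc17a7, the vesicular glutamate transporter of cortical excitatory neurons, and 5 or more of Cux2, a homeobox factor of the upper cortical layers. It also had at most 1 UMI of Gad1 and Gad2 together, at most 2 of Rorb, and at most 1 each of Foxp2, Prox1 and Tcf7l2. Of 142659 neurons left after the doublets and cluster 13, 8984 passed the Slc17a7 step and 475 were left after the Cux2 step. The Rorb limit left 372 and the Foxp2 limit 366, and the Prox1 and Tcf7l2 limits removed none of these. The UMIs of these genes are therefore description in what follows.

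Every mouse, saline mice included, carried both copies of a knock-in of the human transferrin receptor (TfR), was labelled female and was 2.3 months old. Over 24 days each had 4 weekly intravenous doses. Saline was given to 4 mice, Malat1 ASO, the unconjugated oligonucleotide, to 4 at an ASO-equivalent dose of 2 mg per kg, and the conjugates anti-TfR:Malat1 and OTV:Malat1 to 6 and 3 mice at 50 mg per kg. Both conjugates hold the oligonucleotide on a protein that binds TfR. Tissue was collected 72 hours after dosing ended, and nuclei were stained with DAPI, sorted and sequenced by droplet capture. The comparisons asked how much Malat1 RNA each compound left in these neurons, and how the conjugates compared with each other.

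Upper-layer excitatory neurons send axons mainly to other cortical areas and across the corpus callosum, and Cux1 and Cux2 are their classical transcription factors. Malat1 is an abundant noncoding RNA of the nucleus, found in and around speckles, where splicing factors gather. An antisense oligonucleotide of this kind pairs with its RNA and recruits RNase H, which cuts it, and TfR on brain capillaries is a route by which a binding protein can cross into the brain.

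The class was small and unevenly sampled. Saline replicates 1 to 4 gave 71, 15, 10 and 14 members, Malat1 ASO replicates 36, 13, 15 and 3, anti-TfR:Malat1 replicates 37, 39, 12, 15, 27 and 20, and OTV:Malat1 replicates 10, 16 and 13. Values per animal below use the 16 animals with 10 or more members, which leaves out Malat1 ASO replicate 4. Animals of the authors' batch 1, which held 1 animal each of saline, Malat1 ASO and anti-TfR:Malat1 and none of OTV:Malat1, gave 144 members, or 39.3%. Members were 0.327% of the nuclei in batch 1 and 0.112%, 0.0766% and 0.0933% in batches 2 to 4.

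The members carried 3244 to 16326 UMIs each, with a median of 7948, against a median of 3307 over all nuclei and 4283 over the neurons. Their sum was 2999368 UMIs, of which the animals used gave between 58465 and 666434. The 366 members had 366 distinct barcodes, of which 31 also occurred in another library. Over all nuclei, 10044 of 273792 distinct barcodes occurred in 2 or more libraries. That count takes a shared barcode once however many nuclei carry it, so these shares are not on a like measure. In the animal labelled Malat1 ASO replicate 1, Xist, the RNA that coats the inactive X chromosome, had 1 UMI in the members (3.42 CPM, UMIs of a gene scaled to a total of 1000000), against 598 to 1337 CPM in the other 16 animals. The oligodendrocytes of that animal had 0.290 CPM of Xist against 1090 to 1605 in the others. No UMI of the Y-linked genes Ddx3y, Uty, Kdm5d and Eif2s3y was found in the members of any animal. The levels of Malat1 over all members and of the genes named for Malat1 ASO are therefore also given without that library. Inpp4b and the test of Malat1 in cluster 3 are given only with it.

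Of 15 upper-layer marker genes other than Cux2, which the rule used, 9 were highest in the members among 5 classes of nuclei. Their sum was 1579 CPM in the members, against 1016 in Rorb neurons, 330 in Foxp2 neurons, 537 in inhibitory neurons and 309 in oligodendrocytes. With Cux2 the sum in the members was 2382 CPM. These classes were made by a similar rule from 535, 738 and 11412 neurons and from 71388 nuclei labelled oligodendrocytes. Rorb and Foxp2 neurons were limited to at most 2 Cux2 UMIs. Genes that go with Cux2 can thus be higher in the members by that choice, which leaving out Cux2 does not undo. The ranking against these neurons stands as description. Cux1, the paralogue of Cux2, stood at 503 CPM in the members and at 349 in Rorb neurons. Otof and Baz1a, both used as layer 2/3 markers, were at 42.7 and 31.7 CPM in the members, at 2.95 and 0.268 CPM in Rorb neurons and at 26.4 and 4.89 CPM in inhibitory neurons. The other 6 genes were higher elsewhere: Plxnd1, Pou3f2 and Lhx2 in Rorb neurons, Adamts2 and Pou3f3 in oligodendrocytes (Adamts2 at 102 CPM against 19.3 in the members), and Rrad, with 2 UMIs in the members, in inhibitory neurons. The plot of marker sums shows the upper-layer list as the only neuronal layer list on which the members were highest of these 5 classes, with Cux2 or without it.

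**Figure D1:**
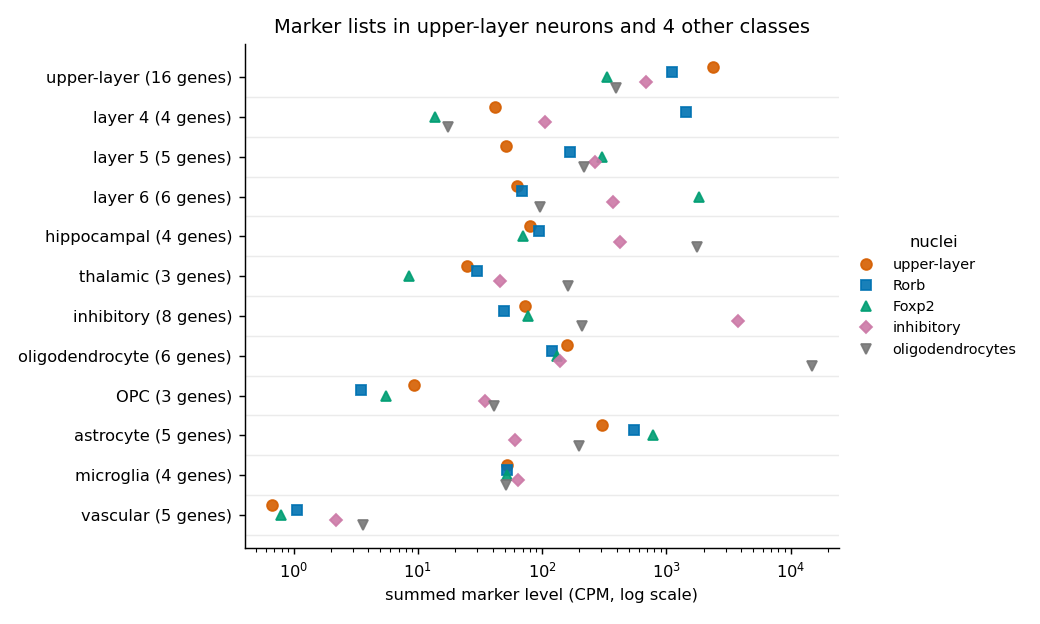
Summed level of each marker list (CPM, log scale) in the upper-layer members and in 4 other classes, each symbol being the pooled UMIs of a class. The genes used by the rule are included, and the members stand at 2382 CPM on the upper-layer list and at 0.667 CPM on the vascular list.

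Markers of other cells were set beside a class in which they were higher, where such a class was at hand. Genes that the rule limited in the members or used to make the other classes were left out of these sums. Layer 4 markers without Rorb summed to 11.7 CPM against 118 in Rorb neurons, layer 6 markers without Foxp2 to 60.7 against 696 in Foxp2 neurons, and inhibitory markers without Gad1 and Gad2 to 69.3 against 2902 in inhibitory neurons. Layer 5 markers, which the rule did not limit, summed to 51.7 CPM against 304 in Foxp2 neurons. Oligodendrocyte markers summed to 158 CPM against 14858 in oligodendrocytes, Mbp at 95.7 CPM making up most of it. Vascular markers summed to 0.667 CPM, with Flt1, Cldn5 and Slc6a13 at 0, and the astrocyte water channel Aqp4 was at 0. Slc1a2, listed as an astrocyte gene, was at 299 CPM in the members and at 551 and 785 CPM in Rorb and Foxp2 neurons.

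Nuclei just inside and just outside the Cux2 limit had similar Malat1. With the other limits kept, 315 nuclei had 3 Cux2 UMIs, 196 had 4, 144 had 5, 95 had 6 and 52 had 7. Malat1 was 7.49% and 7.66% of the UMIs in those with 3 and 4, and 7.29%, 7.65% and 7.41% in those with 5, 6 and 7. Their median depth was 6731 and 7231 UMIs outside the limit and 7167, 8019 and 7579 inside it.

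Malat1 lies at chr19:5795690-5802672 on the minus strand (GENCODE M21, GRCm38, the build mm10 that the submitters' notes name) and is annotated as a lincRNA. Every member held at least 98 UMIs of it. In single members it was 1.67% to 14.8% of the UMIs, with a median of 7.48%. With the UMIs summed per animal, saline replicates 1 to 4 stood at 8.80%, 7.54%, 10.0% and 5.59%. Saline animals alone thus spanned 5.59% to 10.0%, and only 2 of the 12 treated animals used lay below that range.

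In OTV:Malat1, replicates 1 to 3 stood at 6.40%, 7.10% and 3.92%. The mean of 5.81% ± 1.67 (SD, n = 3) was 72.7% of the saline mean of 7.99% ± 1.90 (SD, n = 4). Replicate 3 lay below every saline animal, and the other OTV:Malat1 replicates lay within the saline range. By edgeR, the log2 change was -0.47 (SE 0.20) and did not pass the threshold of 0.05, with an unadjusted p of 0.0285 and an adjusted p of 0.783 over 2790 genes. A two-sided exact permutation over animals gave a difference of -0.47 in log2(CPM + 1) and p = 0.229, and 3 animals against 4 cannot give less than 0.0571.

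The OTV:Malat1 value depended on the library. Without OTV:Malat1 replicate 3 the edgeR log2 change was -0.25, and without saline replicate 4, the lowest saline animal, it was -0.62. Batches 2, 3 and 4 each held 1 animal of either group, and there the log2 ratios to the saline animal were -0.23, -0.50 and -0.51. OTV:Malat1 was the lower of the pair in 3 of 3 batches, which gives an exact permutation p of 0.25 within batches, the smallest possible there. With the authors' batch as a block, edgeR gave -0.52 (SE 0.14), with an unadjusted p of 0.00157 and an adjusted p of 0.681. With that block and 3 or more Cux2 UMIs, edgeR gave -0.52 with an unadjusted p of 0.000291 and an adjusted p of 1.00.

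In anti-TfR:Malat1, replicates 1 to 6 stood at 4.90%, 7.57%, 10.1%, 8.78%, 6.39% and 6.38%. The mean of 7.35% ± 1.86 (SD, n = 6) was 92.0% of the saline mean, and only replicate 1 lay below the lowest saline animal. The edgeR log2 change was -0.11 (SE 0.17, adjusted p = 0.999), and the exact permutation p was 0.629. Set against the saline animal of the same batch, log2 ratios were -0.84, 0.01, -0.09 and 0.19 in batches 1 to 4. Without batch 1 the difference in log2(CPM + 1) was 0.04 by exact permutation (p = 0.821), and without anti-TfR:Malat1 replicate 1 the edgeR change was -0.01. Other omissions moved the edgeR change further from 0, to -0.25 without saline replicate 4 and to -0.22 without anti-TfR:Malat1 replicate 3. Without saline replicate 3 it was 0.0390.

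The free oligonucleotide left Malat1 within the saline range. Malat1 ASO replicates 1 to 3 stood at 8.36%, 8.46% and 8.27%, a mean of 8.36% ± 0.09 (SD, n = 3), and the 3 members of replicate 4 held 6.57%. The edgeR log2 change was 0.08 (SE 0.20, adjusted p = 1.00), and 0.09 (adjusted p = 0.996) without replicate 1. The exact permutation p was 0.8, and 0.933 without replicate 1.

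Between the conjugates, OTV:Malat1 had an edgeR log2 change of -0.36 relative to anti-TfR:Malat1 (SE 0.19, adjusted p = 0.758). The exact permutation gave a difference of -0.35 and p = 0.286. Within batches the log2 ratios were -0.24, -0.40 and -0.70 in batches 2 to 4, with an exact permutation p of 0.111, the smallest possible there. Without OTV:Malat1 replicate 3 the edgeR change was -0.14 (adjusted p = 0.921), without OTV:Malat1 replicate 2 it was -0.56 (adjusted p = 0.650) and without anti-TfR:Malat1 replicate 3 it was -0.24 (adjusted p = 0.852). With the batch block edgeR gave -0.41 (SE 0.13), with an unadjusted p of 0.00503 and an adjusted p of 0.690. No compound passed the threshold on Malat1 in these neurons, at 10 to 71 members per animal.

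**Figure D2:**
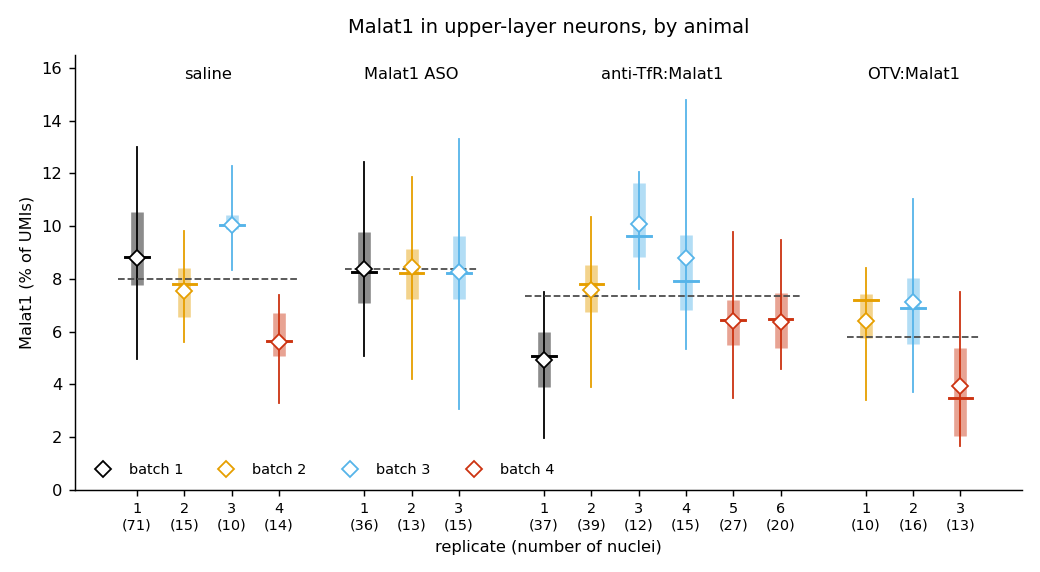
Malat1 as a percent of UMIs in the upper-layer members of the 16 animals used, coloured by the authors' batch. Diamonds give the summed value, thick bars the quartiles and thin lines the range over single nuclei, short bars the median nucleus and dashed lines the group means, of which OTV:Malat1 is lowest at 5.81% with replicates from 3.92% to 7.10%.

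The levels were also set out by batch. In batch 1 the animals of saline, Malat1 ASO and anti-TfR:Malat1 stood at 8.80%, 8.36% and 4.90%. In batch 4 the animals of saline, anti-TfR:Malat1 and OTV:Malat1 stood at 5.59%, 6.39% and 6.38%, and 3.92%. In batch 3 they stood at 10.0%, 10.1% and 8.78%, and 7.10%. Malat1 ASO stood at 8.36%, 8.46% and 8.27% in batches 1 to 3, and at 6.57% in the 3 members of its batch 4 animal, which the tests leave out. All 4 groups were thus lower in batch 4 than in batch 3. The sources used here do not say what the batch numbers stand for, and their part in the levels was not tested beyond the within-batch values.

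The distribution over single nuclei was examined after each member had been thinned to 2000 UMIs, which left out 0 members. A nucleus was called low when it then held fewer than 104 UMIs of Malat1, the 10th percentile of saline members with animals weighted equally. Saline members thus set the cut-off, which holds the mean saline share under 10% by that choice. The permutations of this share kept that cut-off, so their p-values stand as description. In saline, 4.23%, 0%, 0% and 28.6% of the members of replicates 1 to 4 were low. OTV:Malat1 replicates had 2 of 10, 3 of 16 and 10 of 13 members low, the last a share of 76.9%. Those of anti-TfR:Malat1 had 56.8%, 5.13%, 0%, 0%, 25.9% and 35.0% low, and the 3 of Malat1 ASO 0%, 15.4% and 6.67%. The groups overlapped in each comparison.

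The mean low share was 38.6% ± 33.2 (SD, n = 3) in OTV:Malat1 and 8.2% ± 13.7 (SD, n = 4) in saline. The difference of 30.4 percentage points had an exact permutation p of 0.171. It was 11.2 points without OTV:Malat1 replicate 3 and 37.1 without saline replicate 4. In OTV:Malat1 replicate 3 the median thinned nucleus held 71 UMIs of Malat1, and the medians of the other OTV:Malat1 animals were 147 and 142.5. Saline medians were 173, 147, 205.5 and 109.5. The mean share of 20.5% ± 22.9 (SD, n = 6) in anti-TfR:Malat1 differed from saline by 12.3 points, with an exact permutation p of 0.390, and by 5.01 points without its replicate 1.

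Other classes of the same animals gave a measure of how far the upper-layer values stood from their neighbours. In saline, Malat1 was 6.77% of UMIs in Rorb neurons, 6.62% in Foxp2 neurons, 5.48% in inhibitory neurons and 10.4% in oligodendrocytes, against 7.99% in the members. In OTV:Malat1 the same classes stood at 3.97%, 4.85%, 3.49% and 1.56%, against 5.81% in the members. The oligodendrocytes, the myelin-forming glia, thus went from above the upper-layer neurons in all 4 saline animals to below them in all 3 OTV:Malat1 animals.

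**Figure D3:**
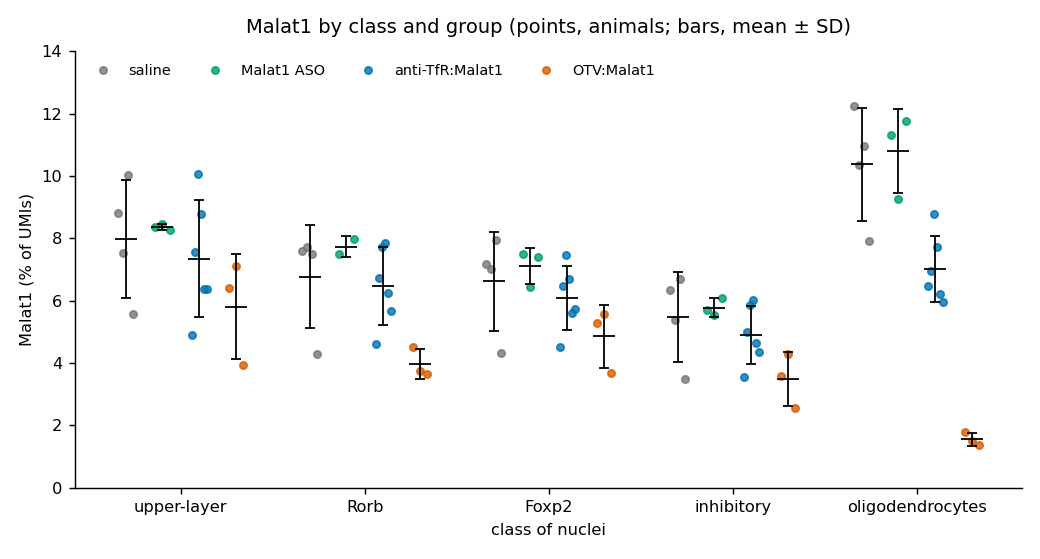
Malat1 as a percent of UMIs in 5 classes of nuclei, by group. Points are animals in which the class had 10 nuclei at least, bars are the mean ± SD, and the oligodendrocytes of OTV:Malat1 stand at 1.56% while the upper-layer members stand at 5.81%.

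Members were then set against the oligodendrocytes of the same animal, as a difference in log2(CPM + 1) of Malat1. OTV:Malat1 had a mean difference of 1.86 ± 0.36 (SD, n = 3) and anti-TfR:Malat1 of 0.04 ± 0.22 (SD, n = 6). For Malat1 ASO it was -0.36 ± 0.20 (SD, n = 3), and saline stood at -0.39 ± 0.18 (SD, n = 4). The 3 OTV:Malat1 animals lay between 1.51 and 2.23, above every animal of saline and of anti-TfR:Malat1. The difference between OTV:Malat1 and saline was 2.25, with an exact permutation p of 0.0571, the smallest possible, and 0.305 after adjustment over 16 tests. Against anti-TfR:Malat1 it was 1.82, with an exact permutation p of 0.0238, the smallest possible, and 0.190 after adjustment. The difference between anti-TfR:Malat1 and saline was 0.43, with an exact permutation p of 0.0190 and 0.190 after adjustment, and anti-TfR:Malat1 replicate 1, at -0.40, lay within the saline values. Without that animal it was 0.52 (exact permutation p = 0.0159). None of the 16 tests passed the adjusted threshold.

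The depth of the classes differed, which stands beside these values: the median was 1249 UMIs in oligodendrocytes and 7948 in the members. The part of this depth in the differences was not tested.

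Against other neurons the shifts were smaller. The log2 difference between members and Rorb neurons was 0.51 ± 0.41 (SD, n = 3) in OTV:Malat1 against 0.24 ± 0.21 (SD, n = 4) in saline. The difference of 0.26 had an exact permutation p of 0.343. Rorb neurons were limited in Cux2 by their rule, and their layer was not tested. Their layer 4 markers without Rorb summed to 118 CPM and their layer 5 markers to 167 CPM. Against Foxp2 neurons, a deep-layer type, OTV:Malat1 stood at 0.24 ± 0.14 (SD, n = 3) and saline at 0.28 ± 0.12 (SD, n = 4), a difference of -0.04 with an exact permutation p of 0.514. Against inhibitory neurons OTV:Malat1 stood at 0.72 ± 0.11 (SD, n = 3) and saline at 0.55 ± 0.09 (SD, n = 4), a difference of 0.17 with an exact permutation p of 0.114. Between OTV:Malat1 and anti-TfR:Malat1 the difference was 0.34 for Rorb, -0.01 for Foxp2 and 0.16 for inhibitory neurons. The exact permutation p-values of these were 0.119, 0.929 and 0.0952. In anti-TfR:Malat1 and Malat1 ASO the shifts against saline in these neuron classes lay between -0.14 and 0.01. Without Malat1 ASO replicate 1 those of Malat1 ASO ran from -0.19 to 0.00234. Against Rorb neurons only 2 Malat1 ASO animals could be used, so the -0.19 rests on replicate 3 alone. The upper-layer members exceeded the inhibitory neurons in Malat1 in every animal used, by 0.44 to 0.83.

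**Figure D4:**
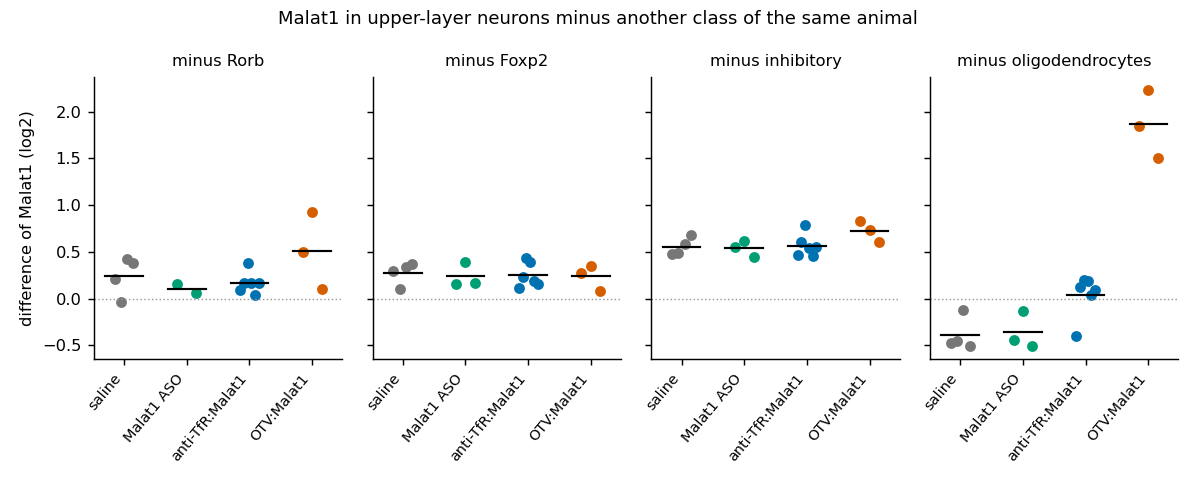
Malat1 in the upper-layer members minus another class of the same animal, as a difference of log2(CPM + 1). Points are animals and bars are group means, and only in the panel for oligodendrocytes do all 3 OTV:Malat1 animals (1.51 to 2.23) lie above all saline animals.

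Members were 0.0744% ± 0.0152 (SD, n = 3) of the nuclei in OTV:Malat1 and 0.153% ± 0.0782 (SD, n = 6) in anti-TfR:Malat1. They were 0.105% ± 0.0938 (SD, n = 4) for Malat1 ASO and 0.176% ± 0.196 (SD, n = 4) for saline. Saline replicate 1, at 0.469% (95% exact binomial interval 0.366% to 0.591%), stood apart from the other saline animals. The difference of -0.102 percentage points between OTV:Malat1 and saline had an exact permutation p of 0.343, and it was -0.00413 within batches and also without saline replicate 1. Between OTV:Malat1 and anti-TfR:Malat1 it was -0.0782, with an exact permutation p of 0.0952, and -0.0706 within batches. The rule used raw UMIs, and the median depth of neurons was 3626 to 3979 UMIs in OTV:Malat1 animals and 3678 to 6070 in saline animals. The part of this depth in the shares was not tested.

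The members fell into 5 of the authors' clusters. Cluster 3 held 207 (56.6%), cluster 6 held 69 (18.9%), cluster 5 held 59 (16.1%), cluster 8 held 29 (7.92%) and cluster 10 held 2. As a description, the members of cluster 3 were led by Tnfaip6, Gm765 and Chn2, those of cluster 6 by Tmem163, Adamtsl1 and Gfra1, those of cluster 5 by Dpyd, Ptpro and Ndst4, and those of cluster 8 by Rxfp1, Col24a1 and Nhs. Rxfp1, the relaxin receptor, was at 508 CPM in the members of cluster 8 and at 29.6 CPM in the others. Tmem163, a zinc transporter of the synaptic vesicle, was at 505 CPM in cluster 6 and at 63.3 CPM in the others.

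Malat1 was 6.74% of the pooled UMIs of the members in cluster 5 and 7.57% to 7.65% in clusters 3, 6 and 8. In cluster 3, the 20 members from OTV:Malat1 stood at 6.06%, the 85 from anti-TfR:Malat1 at 7.08%, the 46 from Malat1 ASO at 8.11% and the 56 from saline at 8.46%. The test planned for clusters of at least 500 members was not run, since no cluster held that many. A test with a lower minimum, chosen after the data had been seen, took the animals with 4 or more members in cluster 3. There OTV:Malat1 stood at 5.65% ± 1.41 (SD, n = 3) and saline at 8.03% ± 2.06 (SD, n = 4), a difference of -0.50 in log2(CPM + 1) with an exact permutation p of 0.171. Between the conjugates it was -0.38 (exact permutation p = 0.167), for anti-TfR:Malat1 against saline -0.12 (exact permutation p = 0.648) and for Malat1 ASO 0.07 (exact permutation p = 0.971). The lowest p adjusted over these 4 exact permutation tests was 0.343. In cluster 8 the pooled level was 10.8% in saline and 3.13% in OTV:Malat1 from 5 members each, and 4 of those 5 OTV:Malat1 members came from replicate 3, at 2.16%, the other from replicate 1, at 8.40%. For the share of members in a cluster, none of 16 exact permutation tests had p under 0.05 before adjustment. Of these, 8 set 3 animals against 4 and cannot give less than 0.0571. The lowest p, 0.114, was that of cluster 6, which held 8.86% of the members in Malat1 ASO and 23.0% in saline. Cluster 8 held 13.6% ± 15.7 (SD, n = 3) of the members in OTV:Malat1 and 5.34% ± 4.27 (SD, n = 4) in saline, and the shares of the groups overlapped.

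Among the other genes, Inpp4b, a phosphatase of phosphoinositide signalling, was the only gene past the threshold in any comparison. It was chosen for mention after its values had been seen. In OTV:Malat1 against saline, 1 of 2790 genes (0.0358%) had an adjusted p under 0.05 by edgeR, and 6.06% had an unadjusted p under 0.05. Inpp4b stood at 25.4, 302 and 314 CPM in OTV:Malat1 and at 31.5, 14.3, 0 and 0 CPM in saline, so the groups overlapped. Its log2 change in edgeR was 3.31 (SE 0.62, adjusted p = 0.0326). Malat1 ASO replicates 1 to 3 stood at 58.1, 54.7 and 51.8 CPM, above every saline animal, and the 3 members of replicate 4 at 184 CPM. In anti-TfR:Malat1 it was at 109 CPM in replicate 1 and at most at 46.9 CPM in the others. Against the same saline animals, the log2 change was 1.35 for Malat1 ASO (adjusted p = 1.00 by edgeR) and 1.12 for anti-TfR:Malat1 (adjusted p = 0.999 by edgeR).

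The Inpp4b counts came from few nuclei. In OTV:Malat1, 2 of 10, 5 of 16 and 4 of 13 members held a UMI of it, and single nuclei gave 20 of the 38 UMIs of replicate 2 and 11 of the 27 UMIs of replicate 3. Over the members of all groups it was at 160 CPM in cluster 5, 151 in cluster 8, 65.9 in cluster 6 and 13.6 in cluster 3. Of the UMIs in OTV:Malat1, 32 lay in cluster 5, 22 in cluster 6, 12 in cluster 8 and 1 in cluster 3, and the nucleus with 20 UMIs was in cluster 6. Layer 5 markers summed to 95.2 to 140 CPM in the 3 OTV:Malat1 animals, against 0 to 92.7 in saline, 0 to 41.0 in the 3 Malat1 ASO animals used and 30.9 to 59.1 in anti-TfR:Malat1, and none of the 5 genes was at 0 over all members. The layer 5 sums rest on 10 to 12 UMIs in each OTV:Malat1 animal. Layer 6 markers, with Foxp2, went the other way, at 38.2 to 47.6 CPM in OTV:Malat1 against 67.5 to 103 in saline. They were at 34.5 to 68.3 CPM in the 3 Malat1 ASO animals used and at 56.2 to 86.1 in anti-TfR:Malat1. The part of cluster mix and of layer 5 and layer 6 markers in the Inpp4b result was not tested. DESeq2 called no gene, with an unadjusted p under 0.05 for 105 other than Malat1, and the Inpp4b call was also lost on leaving out any saline animal, OTV:Malat1 replicate 2 or 3, or anti-TfR:Malat1 replicate 1. It was kept with the batch block (adjusted p = 0.00176 by edgeR), and lost with the replicate block, with only the 2 groups compared in the fit, and at 3 or more Cux2 UMIs, alone or with either block. Against anti-TfR:Malat1 its log2 change was 2.19 (adjusted p = 0.224 by edgeR), and 0.0248 was the adjusted p there with the batch block.

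No gene passed the threshold in the other comparisons (0.0% each by edgeR). The share with an unadjusted p under 0.05 was 3.91% in anti-TfR:Malat1 against saline, 3.66% in Malat1 ASO against saline and 6.67% between the conjugates. DESeq2 also called none in these, with an unadjusted p under 0.05 for 50, 56 and 119 genes other than Malat1.

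Genes with the lowest p and no overlap between groups are given as values, since none passed the threshold. In OTV:Malat1 against saline, groups did not overlap for 3.33% of genes with OTV:Malat1 lower and 3.91% with it higher. Lrrk2, a kinase of endolysosomal trafficking, was at 50.9, 63.5 and 81.4 CPM in OTV:Malat1 and at 210, 200, 154 and 151 CPM in saline, a log2 change of -1.52 (SE 0.36, adjusted p = 0.337 by edgeR). With no filter on low counts it passed the threshold, at -1.67 (adjusted p = 0.0202 by edgeR). Zdhhc14, a palmitoyltransferase, had a log2 change of -0.93 and Rgl1, an exchange factor for Ral, of -0.99 (adjusted p = 0.574 for both by edgeR). In the other direction, Tmed9, of vesicle transport between endoplasmic reticulum and Golgi, had 1.42, Atad1, an ATPase that extracts misplaced membrane proteins, 1.36, and Rapgef5, an exchange factor for Rap, 0.60, each with an adjusted p of 0.574 by edgeR. Rapgef5 was at 373 to 456 CPM in saline, at 610, 659 and 581 in OTV:Malat1, at 467 to 622 CPM in anti-TfR:Malat1 and at 501 to 723 CPM in the Malat1 ASO animals used. Its log2 change was 0.33 in anti-TfR:Malat1 and 0.50 in Malat1 ASO (0.61 without replicate 1), each against the saline animals on which it was chosen, so these values are no separate support. In anti-TfR:Malat1, 0.609% of genes lay below saline without overlap and 0.502% above it.

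When the conjugates were compared, groups did not overlap for 1.65% of genes with OTV:Malat1 lower and 2.4% with it higher. Ntrk2, the receptor for BDNF, was at 560, 532 and 465 CPM in OTV:Malat1, at 599 to 1537 CPM in the 6 anti-TfR:Malat1 animals and at 837 to 966 CPM in saline. Its log2 change was -0.83 (SE 0.23, adjusted p = 0.650 by edgeR) against anti-TfR:Malat1 and -0.82 against saline, and with no filter it passed the threshold in the former at -0.97 (adjusted p = 0.0163 by edgeR). Prkce, a protein kinase C, was at 407, 286 and 500 CPM in OTV:Malat1 and at 529 to 804 CPM in anti-TfR:Malat1, a log2 change of -0.74 (adjusted p = 0.574 by edgeR). The gene 5330417C22Rik had -0.93, and Mtch2, Tecpr2 and 5330434G04Rik had 1.11, 0.92 and 0.94. These comparisons share the OTV:Malat1 animals, and the values stand side by side as a description.

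**Figure D5:**
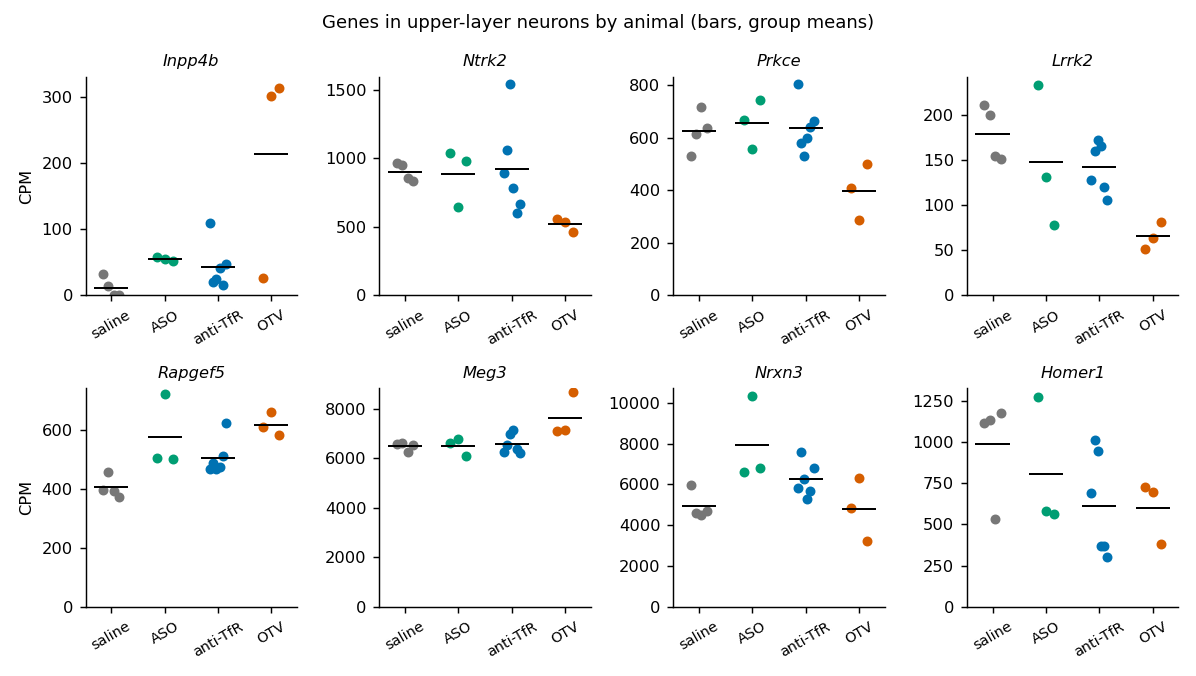
Level (CPM) of 8 genes in the upper-layer members of each animal, with group means as bars (ASO, anti-TfR and OTV stand for Malat1 ASO, anti-TfR:Malat1 and OTV:Malat1). Inpp4b is high in OTV:Malat1 replicates 2 and 3 (302 and 314 CPM) and within the saline range in replicate 1, and Lrrk2 and Ntrk2 show OTV:Malat1 below saline without passing the threshold in the filtered test.

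Nuclear long noncoding RNAs other than Malat1 had no member past the threshold (8 of 10 tested). In OTV:Malat1 against saline 7 had a log2 change above 0 and 1 below, with a median of 0.10 beside 0.00258 over all genes tested. Meg3, an imprinted RNA of the Dlk1-Dio3 region, was at 7122, 7136 and 8697 CPM in OTV:Malat1 and at 6590, 6615, 6277 and 6536 CPM in saline. Its groups did not overlap, and its log2 change was 0.22 (SE 0.11, adjusted p = 0.792 by edgeR). It was 0.03 in anti-TfR:Malat1 and 0.02 in Malat1 ASO (0.01 without replicate 1). Snhg11 had 0.12 in OTV:Malat1. Neat1, the neighbour of Malat1 and scaffold of paraspeckles, had 20 UMIs in all members and was not tested, and none of the 16 genes listed around Malat1 was abundant enough for the test.

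Splicing factors of the speckles, where Malat1 resides, did not pass the threshold (0 of 13 tested, of 17 listed). Their median log2 change in OTV:Malat1 against saline was 0.01, with 7 above 0 and 6 below. Srrm2, a scaffold of speckles, was at 598 CPM on average in OTV:Malat1 and 642 in saline, a log2 change of -0.12. Srsf11 had 0.12. Pnisr was at 407, 437 and 512 CPM in OTV:Malat1 and at 519, 513, 650 and 524 in saline, so its groups did not overlap, with a log2 change of -0.27 (SE 0.18, adjusted p = 0.870 by edgeR).

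Receptor and channel genes, which set how these neurons respond to input, had none past the threshold in OTV:Malat1 against saline. The median log2 change was -0.05 over 16 glutamate receptor genes, -0.03 over 11 GABA receptor genes, 0.07 over 16 potassium channel genes and -0.04 over 14 sodium and calcium channel genes. Among the most abundant, Grin2b, an NMDA receptor subunit, had a log2 change of -0.08 and Kcnd2, an A-type potassium channel, of -0.05. Cacna2d1, an auxiliary calcium channel subunit, was at 1386, 1429 and 1395 CPM in OTV:Malat1 and at 1242, 1255, 992 and 1261 in saline, a log2 change of 0.22 (adjusted p = 0.892 by edgeR) with no overlap. Grm7, a presynaptic glutamate receptor, was at 2566, 2616 and 2573 CPM in Malat1 ASO, above the 1728 to 2345 CPM of saline, with a log2 change of 0.35 (adjusted p = 1.00 by edgeR). Without replicate 1 it was 0.36 (adjusted p = 0.906 by edgeR). Over all genes tested, 3.08% had Malat1 ASO lower and 2.69% higher with no overlap, and 7.81% and 6.81% without replicate 1, which leaves 2 animals against 4.

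Synaptic adhesion genes had 0 of 18 tested past the threshold, of 20 listed, with a median of -0.03 in OTV:Malat1 against saline. Lrrtm4, a postsynaptic organiser of excitatory synapses, was at 4960, 5953 and 3837 CPM in OTV:Malat1 and at 5839 to 7433 CPM in saline, a log2 change of -0.46 (SE 0.15, adjusted p = 0.574 by edgeR). Against anti-TfR:Malat1 it was -0.37 (adjusted p = 0.650 by edgeR). Nrxn3, a presynaptic neurexin, was at 6628, 10346 and 6796 CPM in Malat1 ASO and at 4498 to 5950 CPM in saline, a log2 change of 0.70 (SE 0.18, adjusted p = 0.760 by edgeR) with no overlap, and 0.82 (adjusted p = 0.113 by edgeR) without replicate 1. Ptprd, a receptor phosphatase of the synapse, had 0.09 in OTV:Malat1.

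Activity-dependent genes varied widely between animals of a group. Of 14 listed, 5 were tested and 0 passed the threshold. In OTV:Malat1 against saline all 5 had a log2 change below 0 (median -0.39), in anti-TfR:Malat1 all 5 did (median -0.49), and in Malat1 ASO 2 of 5 did (median 0.29). Without Malat1 ASO replicate 1, 8 of the listed genes passed the filter and 4 of them were below 0 (median 0.04). The comparisons share the saline animals. Homer1, a postsynaptic scaffold with an activity-induced short form, was at 1118, 1133, 530 and 1180 CPM in saline and at 299 to 1012 CPM in anti-TfR:Malat1, a log2 change of -0.70 (SE 0.28, adjusted p = 0.999 by edgeR). In OTV:Malat1 it was at 725, 698 and 384 CPM, a log2 change of -0.75 (adjusted p = 0.792 by edgeR). In Malat1 ASO its log2 change was -0.25, and -0.80 (adjusted p = 0.876 by edgeR) without replicate 1. Bdnf, the ligand of Ntrk2, had -0.10 in OTV:Malat1 and -0.55 in anti-TfR:Malat1.

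Genes of iron handling, interferon response and p53 were mostly too sparse in these nuclei. Tfrc, the mouse transferrin receptor, had 95 UMIs in 21.3% of the members and was not tested. It was listed at 0 in OTV:Malat1 replicate 1 and Malat1 ASO replicate 3 and reached 60.5 CPM in saline replicate 4. Fth1, the ferritin heavy chain, was the only iron gene tested of 10, with a log2 change of 0.55 (SE 0.38, adjusted p = 0.870 by edgeR) in OTV:Malat1 against saline. No interferon response gene of 14 was tested, Stat2 being the most abundant in the members at 21.3 CPM. Of the p53 targets only Sesn1 was tested, with a log2 change of 0.18 (adjusted p = 0.977 by edgeR).

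Identity genes did not pass the threshold in OTV:Malat1 against saline. Slc17a7 had a log2 change of 0.12 (SE 0.19) and Cux2 of 0.12 (SE 0.16), both being held up by the rule. Cux1 had -0.02 (SE 0.23, adjusted p = 0.998 by edgeR). The 15 upper-layer markers other than Cux2 summed to 1539, 1421 and 1395 CPM in OTV:Malat1 and to 1493, 1639, 1779 and 1896 CPM in saline. OTV:Malat1 replicate 1 lay within the saline range and the other OTV:Malat1 animals lay below it. The sum was 1456 to 1722 CPM in the 3 Malat1 ASO animals used and 1378 to 1710 CPM in anti-TfR:Malat1. Values below the saline range were thus also found there, and this sum was not tested. Mbp, the myelin protein gene of oligodendrocytes, had a log2 change of -0.49 (SE 0.58, adjusted p = 0.949 by edgeR).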

How the data were processed

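Nuclei of the posterior brain of 17 mice were counted in 1 matrix of 26131 genes and 284074 nuclei (1099241149 UMIs). The authors deposited raw UMI counts per gene and nucleus, with their cell labels, doublet calls, clusters and batch numbers. Cell Ranger 6.0.1, Seurat 4 and the build mm10 are named in the submitters' processing notes, and 12 other metadata columns were not used. The members and gene lists were chosen with earlier results of these data known.

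Counts of the members were summed per animal. The planned minimum of 20 members per animal left 6 animals, of which 1 was saline and 0 were OTV:Malat1, so it was lowered to 10 after the counts had been seen, which kept 16 animals. Genes kept by the edgeR filter on low counts (2790 with Malat1) were tested with edgeR 4.0.16 (quasi-likelihood, TMM, all groups in the fit, 4 comparisons, Benjamini-Hochberg adjustment). The SE given beside an edgeR change is not printed by edgeR. It was calculated as the absolute log2 change divided by the square root of the quasi-likelihood F statistic. Single values were tested by exact two-sided permutation over animals, on log2(CPM + 1) for levels, and adjusted over the family named. Alternatives were DESeq2 1.42.0, no filter, other rule limits, blocks by batch or replicate number, and leaving out each animal. The planned tests of Malat1 in single clusters were not run, since no cluster held 500 members, and cluster 3 was tested with 4 or more members per animal instead. The limit of 8 Cux2 UMIs for levels was not run (75 nuclei). The scripts were tested on simulated data. Genes named are Malat1, Neat1, Tfrc, Slc17a7 and Cux2, up to 8 per direction past the threshold without overlap (none met this), the 3 lowest p without overlap per direction for OTV:Malat1 against saline and against anti-TfR:Malat1, and the 3 most abundant tested of each list, and others are named as chosen after their values were seen or as markers. The edgeR p-values set a change against the spread between animals, estimated from all groups in the fit with help from other genes. Exact permutation p-values count the regroupings of animals at least as extreme, and the number of animals sets the smallest value possible. Intervals cover counting error only.

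Same-numbered animals had a median correlation of deviations of -0.0157 (19 pairs, -0.196 to 0.221). Animals of the same batch had a median of -0.0464 (23 pairs, -0.225 to 0.237). In saline and Malat1 ASO the replicate number was also the batch number. The measure did not set animals of the same batch apart either, so it cannot decide whether replicate numbers pair the animals.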

Additional observations from a re-analysis of the deposited data

Results flagged for a closer look

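Some animals stood apart from the rest of their group by Dixon's criterion, in which the gap to the nearest other animal is compared with the group's range. Chance gives such a value in about 1 in 20 groups. Saline replicate 1 stood apart in the share of members among nuclei (0.469%), and saline replicate 4 in the share of members low in Malat1 (28.6%). In the log2 difference of Malat1 between members and oligodendrocytes, saline replicate 3 stood apart at -0.13 and anti-TfR:Malat1 replicate 1 at -0.40.

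With 48 named genes and several groups for each, some flags arise by chance at the rate given above, and those below are description. Saline replicate 3 stood apart in 4 of these genes. It had 530 CPM of Homer1, 68.4 CPM of Bdnf, 992 CPM of Cacna2d1 and 650.0 CPM of Pnisr. Its summed counts were the smallest of the animals used, at 58465 UMIs from 10 members, and the part of this depth was not tested. Saline replicate 4 stood apart with 10812 CPM of Ptprd, saline replicate 1 with 5950 CPM of Nrxn3 and saline replicate 2 with 64.2 CPM of Tmed9. Anti-TfR:Malat1 replicate 6 stood apart with 622 CPM of Rapgef5.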

How the results depend on the processing

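Of 541 alternative values, 474 kept their direction and side of the threshold, 39 reversed, 5 lost and 4 gained the threshold, and 19 counts or values moved. For the exact permutation tests the side of the threshold was read from the unadjusted p. The 5 losses were differences from oligodendrocytes, 1 for anti-TfR:Malat1 against saline and 4 between the conjugates. Neither had passed in the main exact permutation tests after adjustment (adjusted p = 0.190). For Malat1 in OTV:Malat1 against saline, the edgeR change stayed below 0 in each alternative run, and its adjusted p, 0.558 to 1.00, never passed. Genes called in that comparison were 0 by DESeq2, with a replicate block, with 3 or more Cux2 UMIs (alone or with a replicate block or batch block) and with only the 2 groups compared, and 5 with no filter. With no filter there were also 5 for anti-TfR:Malat1 and 3 for Malat1 ASO against saline and 8 between the conjugates, and the median of all genes moved to -0.12 and -0.14 in the 2 comparisons of OTV:Malat1. Between the conjugates the batch block gave 1 gene. The replicate block changed no other call and gave Malat1 changes of -0.49, -0.01, 0.05 and -0.48.

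Malat1 ASO values near 0 changed sign. The edgeR change was -0.0438 with 3 or more Cux2 UMIs (-0.0409 with the replicate block and -0.0383 with the batch block) and -0.0244 with no minimum of nuclei. The level difference was -0.0617 within batches and -0.0320 at Cux2 of 3 or more, and the low share 5.94, 3.37 and, at the 5th percentile, 3.07 points. Differences from Foxp2 neurons were 0.00544 (Cux2 of 3 or more) and 0.0499 (no minimum), from inhibitory neurons 0.0215 (within batches), 0.00417 and 0.0486, and from oligodendrocytes -0.00447 (within batches). For anti-TfR:Malat1 against saline, the level difference was 0.0400 without batch 1 and the difference from oligodendrocytes 0.39 within batches (exact permutation p = 0.0556). Between the conjugates, the difference from oligodendrocytes was 1.73 within batches (exact permutation p = 0.111). At Cux2 of 3 or more, the share was -0.176 points and the difference from inhibitory neurons 0.17 (exact permutation p = 0.0238 for both), and that from Foxp2 neurons 0.00331. For the conjugates, the within-batch p-values of the differences from oligodendrocytes, 0.0556 and 0.111, were the smallest possible in those exact permutation tests. Leaving out an OTV:Malat1 animal also put the smallest possible p above 0.05 between the conjugates. Such tests could not pass, and the cause of the other changes was not tested.

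Leaving out 1 animal at a time gave 0 to 1 called genes in both OTV:Malat1 comparisons. For anti-TfR:Malat1 against saline it gave -0.25 to 0.0390 for the edgeR change, -0.0633 to 0.0740 points for the share, -0.0836 to 0.00717 for the difference from Foxp2 neurons and -0.0303 to 0.0535 from inhibitory neurons. For Malat1 ASO the ranges were -0.0555 to 0.23 (edgeR), -0.0617 to 0.22 (level), -0.116 to 0.0265 points (share), -4.87 to 5.94 points (low share), -0.12 to 0.00234 (Foxp2), -0.0593 to 0.0281 (inhibitory) and -0.0823 to 0.12 (oligodendrocytes). For OTV:Malat1 against saline the difference from Foxp2 neurons ranged from -0.10 to 0.0368. Between the conjugates the ranges were -0.0953 to -0.0552 points (share), -1.09 to 28.0 points (low share), -0.0703 to 0.0619 (Foxp2), 0.10 to 0.21 (inhibitory) and 1.64 to 2.00 (oligodendrocytes).

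Depth limits these values: 3 to 71 members and 21722 to 666434 UMIs per animal.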
